A study of Homo sapiens with 8 samples.

Results

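The snoRNAs that guide cleavage of the ribosomal RNA precursor were followed across 8 HEK293T libraries. HEK293T is a human embryonic kidney cell line. The members were chosen by name: SNORD3A (U3), SNORD118 (U8), SNORD13 (U13), SNORA73A and SNORA73B (the 2 human copies of U17). Of these 5 genes, SNORA73B was analysed, through 1 of the 53216 transcripts of the deposited table. SNORD3A, SNORD118, SNORD13 and SNORA73A were not analysed here. The values below are therefore those of U17b, of its host RNA SNHG3, and of the proteins and further snoRNAs of the same pathway.

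The libraries fell into 3 groups. The first held wild-type (WT) RNA depleted of ribosomal RNA with RiboMinus (n = 2). The second held WT RNA enriched by NAD-Capture (n = 3), in which RNA that carries NAD is tagged by an enzyme and a click reaction and is then pulled down. The last group (n = 3) was captured in the same way from cells labelled DXO-KO, a HEK293T line modified in DXO, which encodes an enzyme that removes NAD caps. All 3 groups were cultured without treatment. Whether the modified line was 1 clone, and whether replicates were separate cultures, is not given in the sources used here, so the p-values measure only the spread between these libraries. Library preparation used a TruSeq kit for RiboMinus RNA and a SMARTer low-input kit for captured RNA, so capture and kit cannot be told apart in any comparison with RiboMinus. NAD-Capture libraries made without the tagging enzyme were not analysed here. The RNA was bulk RNA of a culture, in which fewer cells that express a gene and less RNA per cell cannot be told apart.

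Ribosomal RNA is made as a long precursor that is cut at several sites in the nucleolus. Most snoRNAs guide a chemical modification of a base, but a few pair with the precursor and are needed for the cuts themselves. U3 acts in the small-subunit processome, the large particle that forms on the start of the precursor, and U17 is needed for the cuts that release small-subunit rRNA. U8 acts on the large-subunit side. U13, on the small-subunit side, was named with this set, and whether it is needed for a cut was not examined here. U17 is a box H/ACA snoRNA, bound by dyskerin, GAR1, NHP2 and NOP10. It is cut out of introns of SNHG3, a host RNA that encodes no protein, whereas U3, U8 and U13 are transcribed from promoters of their own.

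The 2 U17 copies are shown because reads of one can be assigned to the other. The sequences are those of GENCODE release 29 on the plus strand of GRCh38, which is a later build than that of the deposited values (hg19). Capitals mark the bases with no match in the other copy.
SNORA73B: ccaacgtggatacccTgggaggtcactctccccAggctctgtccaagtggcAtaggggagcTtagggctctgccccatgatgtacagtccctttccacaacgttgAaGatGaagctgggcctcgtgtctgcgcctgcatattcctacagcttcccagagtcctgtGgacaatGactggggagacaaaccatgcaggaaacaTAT
SNORA73A: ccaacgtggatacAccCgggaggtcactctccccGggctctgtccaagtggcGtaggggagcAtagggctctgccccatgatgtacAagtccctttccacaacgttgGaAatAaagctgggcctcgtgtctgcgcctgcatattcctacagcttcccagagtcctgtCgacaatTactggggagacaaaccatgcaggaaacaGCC
SNORA73B is 204 nt long and lies at chr1:28508559-28508762. It lies in an intron of 2 of the 3 SNHG3 transcripts and overlaps no SNHG3 exon. SNORA73A is 206 nt long and lies upstream at chr1:28507366-28507571, in an intron of 2 of the 3 SNHG3 transcripts, with overlap of an exon in 1. The copies matched at 192 of 206 aligned positions (93.2%), with 12 substitutions and 2 gap positions. The longest stretch in which they were identical was 54 nt. Both copies carry the ACA that gives this class its name 3 nt before the 3′ end. Among all 149 SNORA entries of that release, 112 (75.2%) do. How the authors' counting divided reads between the 2 copies is not given in the sources used here, so the value of SNORA73B may hold reads of SNORA73A.

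DXO RNA in the libraries was checked first, and it was not lower under the DXO-KO label. In FPKM (sequenced fragments per kilobase, relative to all mapped fragments), replicates 1 to 3 labelled DXO-KO stood at 128, 61.6 and 71.7. The WT NAD-Capture libraries stood at 33.2, 17.2 and 27.1, and the RiboMinus libraries at 11.2 and 14.3. All 3 DXO-KO-labelled libraries were above all WT libraries. The log2 fold change against WT NAD-Capture was 1.69 (SE 0.446, adjusted p = 0.312 in limma), and against RiboMinus it was 2.61 (SE 0.403, adjusted p = 0.0238), which passed. What the modification removed from the gene is not given in the sources used here, so this level checks only the RNA. No RiboMinus library carried the DXO-KO label, so the amount of DXO RNA in those cells and its capture cannot be told apart. Directions below are those of the DXO-KO-labelled libraries.

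The libraries differed widely in depth. Read from the step between low values, depth was equivalent to 8768150 and 10711500 fragments in RiboMinus, 165342 to 249269 in WT NAD-Capture and 80711 to 806793 in the DXO-KO-labelled libraries. All 6 HEK293T markers were above 0 in every RiboMinus and WT NAD-Capture library. In the DXO-KO-labelled libraries 4 of the 6 were, with PAX2 at 0 in replicate 2 and KRT18 at 0 in replicate 3. The markers of other cell types summed to an FPKM of 1.50 to 1.56, 8.27 to 9.28 and 0 to 5.36 in the 3 groups, and the leukocyte marker PTPRC and the erythroid marker HBB were at 0 in every library. The sum in the WT NAD-Capture libraries was COL1A1 alone, a fibroblast collagen. Its part in the results below was not tested.

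SNORA73B was one of the most abundant transcripts of every library, and none of the 3 comparisons of the values as deposited passed the test for it. WT RiboMinus replicates 1 and 2 had an FPKM of 8943 and 8254. WT NAD-Capture replicates 1 to 3 had 17350, 25523 and 7258. Replicates 1 to 3 labelled DXO-KO had 6853, 36605 and 152740. The means were 8598.5 ± 487 (SD, n = 2), 16710 ± 9149 (SD, n = 3) and 65399 ± 77088 (SD, n = 3). The order of the means was therefore RiboMinus, WT NAD-Capture, DXO-KO, but each group overlapped both others. The lowest value of all came from the group with the highest mean. The highest value was 1.08 times the lowest within RiboMinus, 3.52 times within WT NAD-Capture and 22.3 times within the DXO-KO-labelled libraries. Replicate 3 of that last group, which held the highest value, was also the shallowest library, and replicate 1, which held the lowest, was the deepest NAD-Capture library; the part of depth in this spread was not tested.

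**Figure D1:**
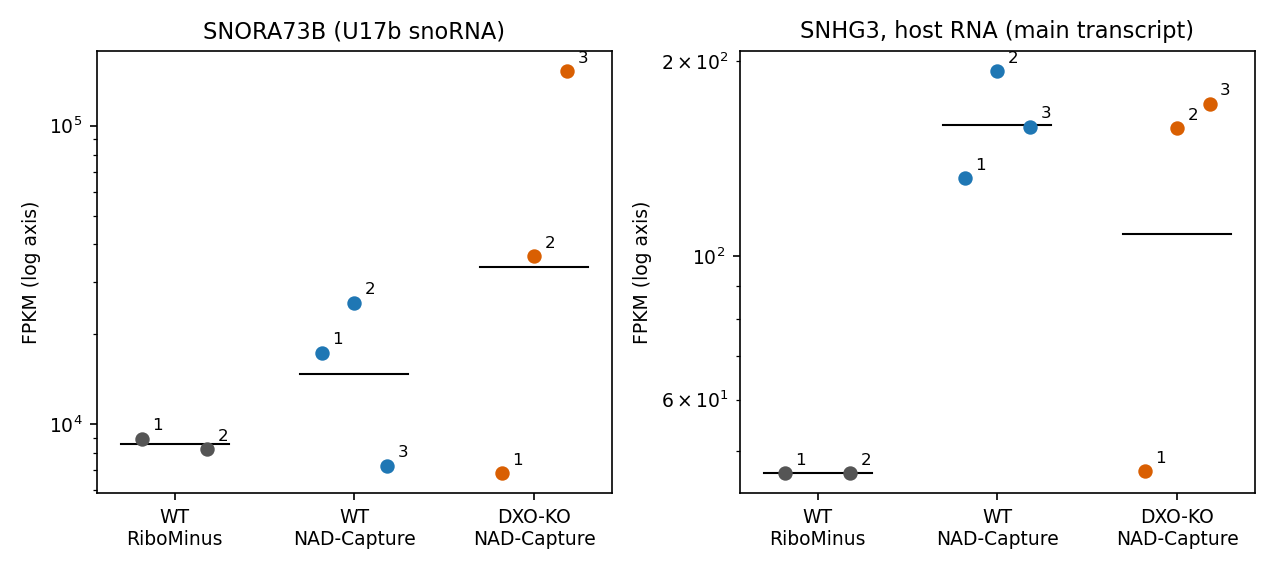
FPKM of SNORA73B (left) and of the main transcript of its host RNA SNHG3 (right) on log axes, 1 point per library with its replicate number and a bar at the geometric mean of each group. The SNORA73B values of the 3 groups overlap, from 6853 to 152740, while SNHG3 lies at 46.2 in both RiboMinus libraries and at 132 or more in the 3 WT NAD-Capture libraries.

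The next comparison sets the captured RNA of DXO-KO-labelled cells against that of WT cells. A gain of NAD caps, a change in the amount of an RNA and background pull-down cannot be told apart in it. No RiboMinus library carried the DXO-KO label, and libraries made without the tagging enzyme were not analysed here. In this comparison, 0.032% of the transcripts tested passed the threshold of an adjusted p of 0.05. SNORA73B had a log2 fold change of 1.19 on the log2(FPKM + 1) scale (SE 1.25, 95% interval -1.73 to 4.12, adjusted p = 0.654 in limma). A two-sided exact permutation test of that difference over the 6 libraries gave p = 0.5, where the smallest p this design allows is 0.1. The difference was smaller than the spread within the DXO-KO-labelled libraries, whose log2 values had an SD of 2.24. Without replicate 3 labelled DXO-KO it was 0.10, and without replicate 1 it was 2.34. Scaling all libraries to the same distribution of values (quantile normalization) turned the direction, to -0.43.

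Against WT RiboMinus, 25.7% of the transcripts tested passed the threshold in WT NAD-Capture. SNORA73B had a log2 fold change of 0.78 (SE 0.594, 95% interval -0.85 to 2.41, adjusted p = 0.436 in limma). The two-sided exact permutation p was 0.6 over 10 regroupings of the libraries, which are too few for any p under 0.05. WT NAD-Capture replicates 1 and 2 lay above both RiboMinus libraries and replicate 3 below both. Without replicate 3 the log2 fold change was 1.29 and passed the threshold (adjusted p = 0.0371 in limma). With quantile normalization it was -2.17 and passed in the opposite direction (adjusted p = 0.022).

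For the DXO-KO-labelled libraries against WT RiboMinus, 14% of the transcripts tested passed the threshold. SNORA73B had a log2 fold change of 1.97 (SE 1.44, 95% interval -1.95 to 5.89, adjusted p = 0.496 in limma). The two-sided exact permutation p was 0.6 over 10 regroupings of the libraries, which are too few for any p under 0.05. With quantile normalization the log2 fold change was -2.75 and passed the threshold (adjusted p = 0.0362 in limma). The 3 comparisons share libraries, each group entering 2 of them, and their values are therefore not independent.

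The share of a library that SNORA73B took up did not follow its FPKM, because the summed FPKM of the libraries differed. SNORA73B made up 1.65% and 1.51% of the summed FPKM of the RiboMinus libraries. It made up 1.09%, 1.21% and 0.632% in WT NAD-Capture replicates 1 to 3. In replicates 1 to 3 labelled DXO-KO it made up 0.539%, 0.428% and 2.2%. Without SNORD87, the value of replicate 2 was 1.15%. On this scale 5 of the 6 NAD-Capture libraries lay below both RiboMinus libraries, and replicate 3 labelled DXO-KO lay above them. Among all transcripts SNORA73B ranked 3 in both RiboMinus libraries, 15, 9 and 23 in WT NAD-Capture, and between 13 and 34 under the DXO-KO label (34, 16 and 13).

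Among the small RNAs alone, the share of SNORA73B was higher in RiboMinus than in both NAD-Capture groups. SNORA73B was the most abundant snoRNA or scaRNA (small Cajal body RNA) in both RiboMinus libraries, with 16.1% and 11.8% of the FPKM summed over all of them. Its share was 4.44%, 4.55% and 3.13% in WT NAD-Capture. It was 1.13%, 0.519% and 3.87% in the DXO-KO-labelled libraries. In replicate 2 of these, SNORD87 alone made up 76.1% of that sum and was listed at 0 in the other 7 libraries; without it, the share of SNORA73B there was 2.17%. The RiboMinus libraries thus did not overlap either NAD-Capture group, whereas the NAD-Capture groups overlapped each other. Its rank within these RNAs went from 1 in both RiboMinus libraries to 7, 3 and 8 in WT NAD-Capture, with 25, 12 and 8 in the DXO-KO-labelled libraries. The shares are given without a test, and how many other snoRNAs or scaRNAs keep the groups apart in this way was not counted. A share also depends on the other RNAs in the sum. Among them was SNORD45A, with an FPKM of 164464 in WT NAD-Capture replicate 2 and 1262420 in replicate 3 labelled DXO-KO.

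FPKM divides by an effective length, and for RNAs about as short as the sequenced fragments that correction can differ between libraries made with different kits. SNORA73B, which spans 205 nt in the RefSeq gene table, was therefore set beside small RNAs of like length. Within 15 nt lay SNORA74A (200 nt) and SNORA74B (204 nt), the 2 copies of the H/ACA snoRNA U19. SNORA74A had an FPKM of 472 and 410.3 in RiboMinus, then 896, 607 and 737 in WT NAD-Capture and lastly 1959, 1263 and 3015 in the DXO-KO-labelled libraries. SNORA74B had 48.9 and 60.2, then 169, 95.5 and 63.3, then 684, 434 and 2329. Both were thus far below SNORA73B in every library.

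The log2 ratio of SNORA73B to the median of these 2 RNAs was 5.10 and 5.13 in RiboMinus, against 5.03, 6.18 and 4.18 in WT NAD-Capture. It was 2.37, 5.43 and 5.84 in the DXO-KO-labelled libraries. The group means were 5.12 ± 0.021 (SD, n = 2), 5.13 ± 1.01 (SD, n = 3) and 4.55 ± 1.89 (SD, n = 3), and all 3 groups overlapped. Relative to the median of the 2 RNAs closest to it in length, SNORA73B therefore differed between groups by less than the spread within the NAD-Capture groups. That median leans to SNORA74A, the more abundant. To SNORA74B alone, the log2 ratio was 7.51 and 7.10 in RiboMinus, with 6.68, 8.06 and 6.84 in WT NAD-Capture. It was 3.32, 6.40 and 6.04 in the DXO-KO-labelled libraries, each below every WT library. To SNORA74A alone, it was 4.25 and 4.33, then 4.28, 5.39 and 3.30, then 1.81, 4.86 and 5.66, and all groups overlapped. Neither ratio was tested.

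A wider window of 40 nt, chosen after seeing the data, gave another picture. It held 8 RNAs: SCARNA1, SNORA81, SCARNA16, SNORA23, SNORA74A, SNORA74B, SNORA58 and SNORD17. Their median FPKM was 175 and 206 in RiboMinus, then 1585, 2000.2 and 805 in WT NAD-Capture and lastly 1423, 3442 and 10327 in the DXO-KO-labelled libraries. The log2 ratio of SNORA73B to that median was 5.68 and 5.33 in RiboMinus. WT NAD-Capture had 3.45, 3.67 and 3.17, with 2.27, 3.41 and 3.89 in the DXO-KO-labelled libraries. On this measure the RiboMinus libraries overlapped neither of the other groups. The ratio was not tested, and how many other RNAs keep the groups apart in this way was not counted. In RiboMinus SNORA73B was the highest of the 9 RNAs, and in the DXO-KO-labelled libraries SCARNA1 stood above it in every replicate.

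The difference between the windows came from the neighbours, which did not move alike. Between WT NAD-Capture and RiboMinus, 5 of the 8 rose in limma: SCARNA1 (log2 fold change 8.44, adjusted p = 0.00234), SNORA23 (4.82, adjusted p = 0.00283), SNORA81 (4.05, adjusted p = 0.0123), SNORA58 (4.03, adjusted p = 0.0209) and SNORD17 (2.42, adjusted p = 0.0127). In the same comparison 12.6% of all transcripts tested rose, and 32 of the 140 snoRNAs and scaRNAs tested (22.9%) did. SNORA74A (0.74, adjusted p = 0.0789), SNORA74B (0.88, adjusted p = 0.318) and SCARNA16 (1.55) did not pass. SCARNA1 showed the widest span, with an FPKM of 52.2 and 37.4 in RiboMinus, then 17984, 23689 and 9100.4 in WT NAD-Capture and lastly 27948, 70953 and 256440 in the DXO-KO-labelled libraries. Quantile normalization kept the direction of the other 4 and turned that of SNORD17, to -0.31. None of the 8 passed between the DXO-KO-labelled libraries and WT NAD-Capture. The RNAs that rose in WT NAD-Capture against RiboMinus spanned 166, 177, 189, 236 and 237 nt. Those that did not pass there spanned 187, 200 and 204 nt. The part of length in this was not tested.

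**Figure D2:**
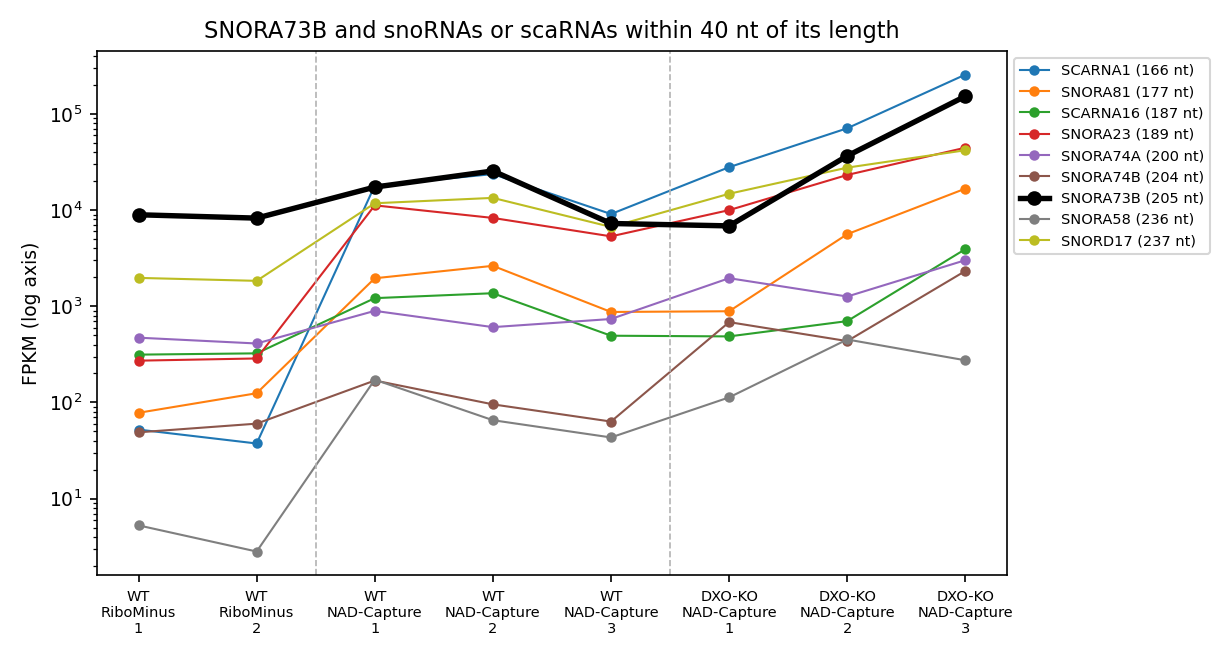
FPKM on a log axis of SNORA73B (thick black line) and of the 8 snoRNAs or scaRNAs within 40 nt of its length, in each library; lines join the values of 1 RNA and dashed lines part the 3 groups. SNORA73B is the highest in both RiboMinus libraries, SCARNA1 goes from below 60 there to above 9100 in every NAD-Capture library, and SNORA74A and SNORA74B stay below SNORA73B in all 8.

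Most snoRNAs and scaRNAs above 0 in every library of a comparison had a higher log2 fold change than SNORA73B. That filter leaves out RNAs that a shallow NAD-Capture library did not detect, and so favours RNAs that are high after capture. In WT NAD-Capture against RiboMinus, 56 such RNAs had a median log2 fold change of 2.48, and 40 lay above SNORA73B and 15 below. For the DXO-KO-labelled libraries against RiboMinus, the median of 59 was 4.01, with 51 above and 7 below. Between the DXO-KO-labelled libraries and WT NAD-Capture, the median of 58 was 1.78, with 46 above and 11 below. Over all snoRNAs and scaRNAs tested, including those at 0 in some library, the counts were: 70 of 140 lay above it and 69 below in WT NAD-Capture against RiboMinus, 87 of 149 above and 61 below for the DXO-KO label against RiboMinus, and 96 of 138 above and 41 below between the NAD-Capture groups. These counts place 1 RNA among others and carry no test.

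**Figure D3:**
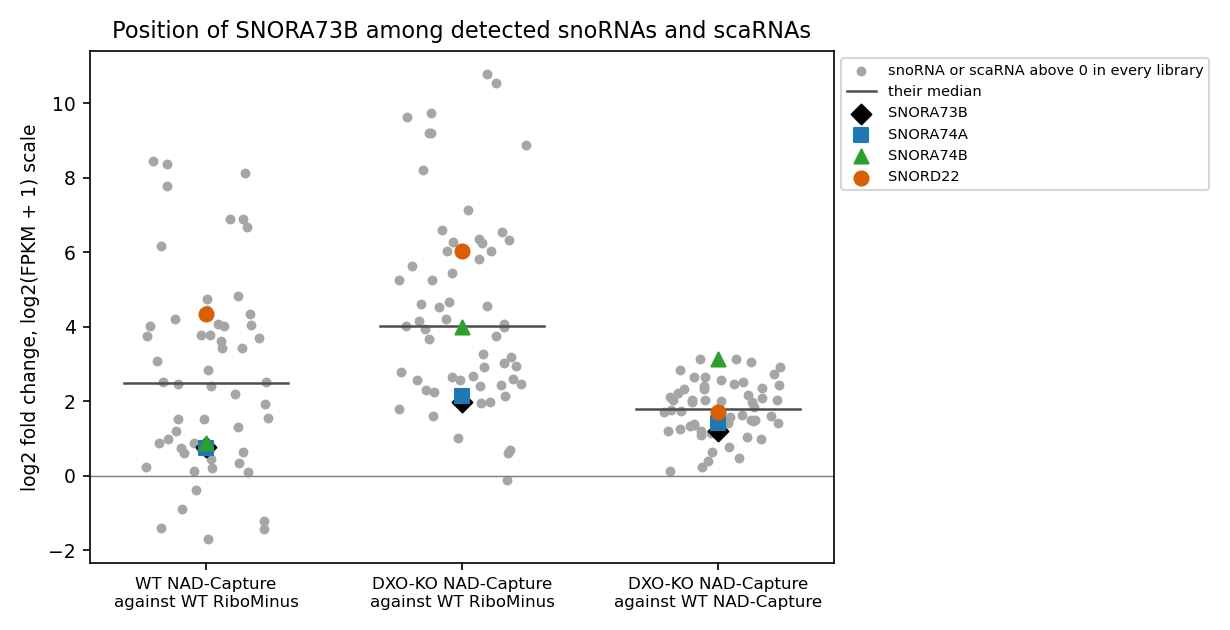
Log2 fold change, on the log2(FPKM + 1) scale, of each snoRNA or scaRNA above 0 in every library of the comparison (grey points, spread sideways for sight only) with their median (bar), for the 3 comparisons. SNORA73B (diamond) lies below the median in each, at 0.78, 1.97 and 1.19 from left to right, and SNORD22 (circle) lies at 4.34, 6.04 and 1.70.

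In WT NAD-Capture against RiboMinus the host RNA passed the threshold and the snoRNA it carries did not. Whether their changes differed from each other was not tested. The main SNHG3 transcript, NR_002909, had an FPKM of 46.2 in both RiboMinus libraries. It had 132, 193 and 159 in WT NAD-Capture, with 46.5, 158 and 172 in the DXO-KO-labelled libraries. The WT NAD-Capture libraries thus lay above both RiboMinus libraries, and replicate 1 labelled DXO-KO lay at the RiboMinus level. SNHG3 rose in WT NAD-Capture against RiboMinus by a log2 fold change of 1.76 (SE 0.214, adjusted p = 0.00834 in limma). With either RiboMinus library left out the value was 1.76 (replicate 1) and 1.77 (replicate 2) with an adjusted p of 0.087 each in limma. Such a fit keeps 1 RiboMinus library, which is assumed to vary like the NAD-Capture libraries. Its second transcript, NR_036473, had 2.21 and 1.17 in RiboMinus, against 24.7, 15.5 and 8.15 in WT NAD-Capture, a log2 fold change of 2.57 (adjusted p = 0.0355 in limma). That transcript was listed at 0, 12.3 and 0 in the DXO-KO-labelled libraries.

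In the DXO-KO-labelled libraries, SNHG3 did not pass against either other group. Its log2 fold change was -0.55 against WT NAD-Capture (adjusted p = 0.646 in limma) and 1.21 against RiboMinus (adjusted p = 0.416). Without replicate 1 labelled DXO-KO these were 0.046 and 1.81, and the second then passed (adjusted p = 0.0098 in limma). Replicate 1 was thus low for both SNORA73B and its host.

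The ratio of snoRNA to host showed this library by library. SNORA73B stood at 194 and 179 times the FPKM of the main SNHG3 transcript in RiboMinus. It stood at 131, 132 and 45.8 times in WT NAD-Capture, with 147, 232 and 887 times in the DXO-KO-labelled libraries. On the log2 scale the means were 7.54 ± 0.0821 (SD, n = 2), 6.53 ± 0.88 (SD, n = 3) and 8.29 ± 1.35 (SD, n = 3). All 3 WT NAD-Capture ratios were below both RiboMinus ratios and below all 3 ratios of the DXO-KO-labelled libraries, and the latter spread to both sides of RiboMinus. These ratios set a short RNA against a long one, so the length correction named above enters them in full, and they were not tested.

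RCC1, which lies next to SNHG3 and encodes the exchange factor of the GTPase Ran, ran opposite to the host. Its transcripts summed to an FPKM of 139 and 135 in RiboMinus, were listed at 0 in all 3 WT NAD-Capture libraries, and summed to 0.00353, 20.4 and 0 in the DXO-KO-labelled libraries. The fall in WT NAD-Capture passed the test (adjusted p = 0.000761 in limma on summed values), and no fold is given against a group listed at 0. TMEM107, a gene of the primary cilium whose transcript overlaps the U8 gene, had 12.1 and 17.9, then 26.4, 19.2 and 35.8, then 14.2, 50.6 and 24.0, and did not pass in any comparison.

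The rows most like SNORA73B across the 8 libraries were found from the root mean square difference of centred log2(FPKM + 1) profiles, over 7643 transcripts above 0 in every library. They were RPSA (0.531), which encodes a small-subunit ribosomal protein, a non-coding transcript of CENPU (0.535) and the ribosomal protein pseudogene RPS18P9 (0.549). RPSA had an FPKM of 165 and 148 in RiboMinus, then 312, 460 and 197 in WT NAD-Capture and lastly 160, 643 and 1095 in the DXO-KO-labelled libraries. It shared with SNORA73B the low replicates, 3 of WT NAD-Capture and 1 labelled DXO-KO. The transcript of CENPU, the gene of a centromere protein, lay at or below an FPKM of 27.2 throughout, and reads of RPS18P9 can be shared with its parent gene. Among the 52 snoRNAs and scaRNAs compared, a choice added after the values were seen, SNORD97 was nearest (0.623), then SCARNA16 (0.668) and SNORA71D (0.752). SNORD97 had 2019 and 1567, then 3909, 7993 and 4346, then 3927, 10340 and 28663. All 8 points of such a profile share the libraries and their depth, so the likeness is a description.

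Of a list of further snoRNAs set beside the members, SNORD22 (U22) and SNORD33 were tested, and SNORD117 was listed at 0 in every library. SNORD33 is known as a methylation guide and not for cleavage. The U3 copies and the U14 genes SNORD14A to SNORD14E were not analysed here. SNORD22, needed for small-subunit rRNA in vertebrate cells, had an FPKM of 129 and 138 in RiboMinus, then 4799, 4714 and 896 in WT NAD-Capture and lastly 4336, 6535 and 24443 in the DXO-KO-labelled libraries. Every NAD-Capture library was above both RiboMinus libraries. The log2 fold change against RiboMinus was 4.34 in WT NAD-Capture (SE 0.887, adjusted p = 0.033 in limma) and 6.04 in the DXO-KO-labelled libraries (SE 0.842, adjusted p = 0.0195). The direction of both held when centred or quantile normalized, with 3.89 and 3.73 in WT NAD-Capture on summed values. Between the NAD-Capture groups it was 1.70 and did not pass (adjusted p = 0.404 in limma on summed values).

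SNORD33 was not steady enough to compare. It had 1503 and 1002 in RiboMinus, was listed at 0, 0 and 22891 in WT NAD-Capture, and at 17002, 0 and 0 in the DXO-KO-labelled libraries. It was thus at 0 in 4 of the 6 NAD-Capture libraries.

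The proteins that bind H/ACA snoRNAs were given in full because they form the particle with SNORA73B. Transcripts of a gene can trade FPKM between them, so the values here are summed per gene. DKC1 (dyskerin, the catalytic subunit) had 114 and 118 in RiboMinus, against 50.3, 43.3 and 41.2 in WT NAD-Capture, a log2 fold change of -1.35 (adjusted p = 0.00735 in limma). NOP10 had 186 and 162, then 41.3, 79.5 and 84.1, a log2 fold change of -1.40 (adjusted p = 0.0413). GAR1 had 29.3 and 30.6, then 6.19, 22.1 and 44.1 (-0.66, adjusted p = 0.559), and NHP2 had 130.2 and 137, then 151, 52.5 and 68.0 (-0.70, adjusted p = 0.322). The WT NAD-Capture values of GAR1 and NHP2 reached to both sides of RiboMinus, and neither passed. With quantile normalization NOP10 kept its direction but did not pass (adjusted p = 0.0698). None of the 4 passed between the DXO-KO-labelled libraries and WT NAD-Capture, where their log2 fold changes were 0.30 to 0.90, nor between the DXO-KO-labelled libraries and RiboMinus, where they were -1.10 to 0.20 on the values as deposited. With quantile normalization NOP10 passed in that last comparison (-1.39, adjusted p = 0.0212).

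The pathway lists together held 80 genes, of which 70 were tested: the core proteins of box C/D and H/ACA particles, the small-subunit processome, large-subunit factors linked to U8, factors that cap or transcribe independently transcribed snoRNAs, the list of further snoRNAs, and the host and overlapping genes. Summed per gene, 56 of the 70 had negative log2 fold changes in WT NAD-Capture against RiboMinus, where 7586 of all 16859 genes tested had. By transcript, 8 of 100 rose and 23 fell, where 12.6% of all transcripts tested rose and 13.1% fell. The median log2 fold change was -1.02, against 0.24 over all transcripts tested. Summed per gene, 3 of 70 rose and 22 fell, where 16.5% of all genes rose and 7.94% fell. On an effective length of 1 kb, 1 fragment was worth an FPKM of 4.01 to 6.05 in WT NAD-Capture and 0.0934 to 0.114 in RiboMinus. Genes near 0 in RiboMinus can thus enter the test through few captured fragments, and such genes can rise but hardly fall. Their part in the shares of all genes and transcripts was not tested, and no background of like RiboMinus level was compared. The small-subunit processome, the particle in which U3 and U17 act, held 38 of the 70 genes tested and most of those that fell. Of its 38 genes 15 fell and none rose, with a median of -1.21. The fall was not particular to it: 2 of 5 box C/D and 2 of 4 H/ACA core proteins fell. In the large-subunit list 1 of 5 fell, and in the capping and transcription list 1 of 13. The direction of the processome genes held under both other scalings, with 28 falling and none rising when each library was centred on its median (17.6% of all genes fell), and 8 falling and none rising with quantile normalization (5.52% of all genes fell). Centring each library on its median transcript moved the median of all transcripts from 0.24 to -0.23 and the split of all calls from 3119 higher and 3244 lower to 2231 higher and 4000 lower.

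UTP20 and PDCD11, both large scaffold proteins of the small-subunit processome, were among the genes that fell. UTP20 had 31.2 and 30.4 in RiboMinus, then 8.99, 6.99 and 2.79 in WT NAD-Capture and lastly 5.05, 6.70 and 4.22 in the DXO-KO-labelled libraries. PDCD11 had 54.6 and 51.8, then 13.6, 8.89 and 12.5, then 11.4, 11.8 and 12.0. Every NAD-Capture library was below both RiboMinus libraries for each. Summed per gene, the log2 fold changes in WT NAD-Capture were -2.24 (adjusted p = 0.0237) and -2.12 (adjusted p = 0.00542) in limma. For the DXO-KO-labelled libraries against RiboMinus they were -2.35 (adjusted p = 0.0309) and -2.09 (adjusted p = 0.0215). With quantile normalization UTP20 did not pass in WT NAD-Capture (-2.45, adjusted p = 0.068), and PDCD11 did (-1.97, adjusted p = 0.0143).

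Other named transcripts changed within a gene more than the gene did. NOP9 had 1 transcript that rose by 3.58 and another that fell by 4.25 on the log2 scale in WT NAD-Capture, while its sum did not pass (-0.67, adjusted p = 0.119). A transcript of NOL11 fell by 6.20 with the sum at -1.33 (adjusted p = 0.0519), and one of DKC1 fell by 6.56 with the sum at -1.35. A transcript of NAT10, the acetyltransferase of small-subunit rRNA, rose by 3.38 in the DXO-KO-labelled libraries against RiboMinus, while the gene's sum fell by 1.68 (adjusted p = 0.0396). SNAPC4, a subunit of the complex that starts transcription at snRNA-type promoters, was the gene of the capping and transcription list that rose in WT NAD-Capture, with 8.40 and 8.19 in RiboMinus against 23.6, 17.9 and 21.1 (log2 fold change 1.22, adjusted p = 0.0183 on summed values; 0.77, adjusted p = 0.0559 when centred).

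For the DXO-KO-labelled libraries against RiboMinus, 3 of 104 pathway transcripts rose and 14 fell, where 4.41% of all transcripts rose and 9.63% fell. The median log2 fold change was -0.55, against 0.13 over all transcripts. The limit given above for genes near 0 in RiboMinus holds for the shares in this comparison too. Summed per gene, 1 of 70 rose (SNORD22) and 6 fell, where 2.29% and 0.83% of all genes did. The 6 were all of the small-subunit processome. Besides UTP20, PDCD11 and NAT10 they were DHX37 (-1.94, adjusted p = 0.0405), NOL6 (-1.89, adjusted p = 0.047) and IMP3 (-1.36, adjusted p = 0.0484), the latter a protein of the U3 particle; NOL6 and IMP3 were named after their values were seen. RRP9, a U3-specific protein, passed by transcript (-2.08, adjusted p = 0.0395) and not on summed values (adjusted p = 0.0526).

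Between the DXO-KO-labelled libraries and WT NAD-Capture, none of the 101 pathway transcripts passed in limma. At an unadjusted p under 0.05 there were 8 (7.92%), where 9.17% of all transcripts tested were under it. Log2 fold changes were positive for 54 and negative for 47, where they were positive for 12023 and negative for 12981 of all transcripts tested. The median was 0.10, against -0.06 over all transcripts. Summed per gene, none of the 70 passed either, where 0.0341% of all genes did, with a median of 0.21 against -0.01 over all genes.

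**Figure D4:**
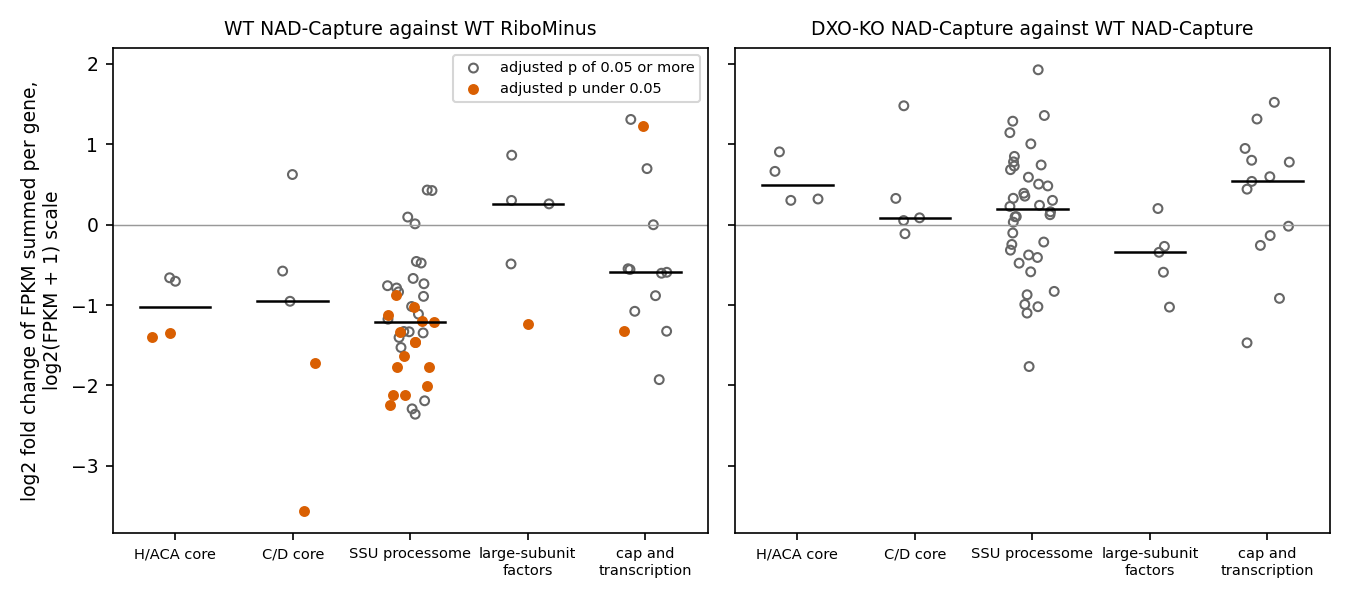
Log2 fold change of FPKM summed per gene, on the log2(FPKM + 1) scale, for the protein-coding pathway lists (1 point per gene, spread sideways for sight only, bar at the median), filled where the adjusted p was under 0.05. In WT NAD-Capture against RiboMinus 15 of 38 small-subunit processome genes are filled, all below 0, and in the DXO-KO-labelled libraries against WT NAD-Capture no gene is filled.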

How the data were processed

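RNA was sequenced in 8 HEK293T libraries in 3 groups, taken from the labels. The authors deposited FPKM per RefSeq transcript and library. TopHat2 2.1.1, Bowtie2 2.2.8.0, Cuffdiff and hg19 are named in the submitters' processing notes; options, annotation version and scaling between libraries are not given in the sources used here. A RefSeq gene table (GRCh38.p14) gave symbols to 52028 of 53216 transcripts (97.8%). It was used for names and gene spans only.

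Group differences were fitted on log2(FPKM + 1) in limma (3.58.1, under R 4.3.3; functions lmFit and eBayes, the latter with a trend). Tests were two-sided over transcripts averaging an FPKM of 1 or more across the libraries in the fit, with Benjamini-Hochberg adjustment over all of them and only the 2 groups compared in a fit. Fold changes on this scale understate those of low transcripts. The fit was run on simulated data with the same spread in every library and no differences in depth. Such a run checks the code and not how well the fit suits these libraries. Exact permutation tests used scipy 1.17.1. Depth was read from the value of 1 fragment on 7076 transcripts of 1500 to 6000 nt (effective length: length minus 200 nt), where 71.2% to 73.6% of low values were within 4% of a multiple of it.

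The members and lists were chosen with earlier results of these data known. Named were the members, DXO, the host and overlapping genes, the nearest 3 profiles, and of the other lists up to 5 transcripts per direction and comparison that passed, had no library at 0 and had groups apart; the H/ACA proteins and the RNAs of like length were added after their values were seen. The alternatives were a pseudocount of 0.1, other filters, centring, quantile normalization, sums per gene, a fit of all 8 libraries, a replicate block, leaving out each replicate, and, added after seeing the data, the 40 nt window and shares without SNORD87.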

Additional observations from a re-analysis of the deposited data

How the results depend on the processing

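The direction of SNORA73B held in 13 of 14 alternatives between the NAD-Capture groups, and in 12 of 13 in each comparison with RiboMinus. Quantile normalization reversed it in all 3 comparisons: to -0.43 in the libraries labelled DXO-KO against WT NAD-Capture, -2.17 in WT NAD-Capture against RiboMinus and -2.75 in the libraries labelled DXO-KO against RiboMinus. Leaving out each replicate gave 0.10 to 2.34, 0.39 to 1.29 and 0.88 to 3.12 in that order. The 1.29, without WT NAD-Capture replicate 3, passed the threshold. The 40 nt window moved the difference in log2 ratio to length-matched RNAs between WT NAD-Capture and RiboMinus from 0.012 to -2.07. SNORD17, of like length, also reversed under quantile normalization, to -0.31 in WT NAD-Capture against RiboMinus and -0.16 in the libraries labelled DXO-KO against RiboMinus. Ratios of U3, U8 and U13 to U17 were not run. The cause of each change was not tested.

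Counts of transcripts past the threshold varied more. Between the NAD-Capture groups, 8 became 5 with a pseudocount of 0.1, 51 with no filter, 141 with all 8 libraries in a common fit, and 0 to 15 with a replicate left out. In WT NAD-Capture against RiboMinus, 6363 became 1811 at a mean FPKM of at least 10, 4126 summed per gene and 3962 in a common fit, and 2639 to 8302 with a replicate left out. In the libraries labelled DXO-KO against RiboMinus, 3148 became 5320 with no filter, 647 at a mean of at least 10 and 466 summed per gene, and 1625 to 6530 with a replicate left out. The pathway transcripts past the threshold in WT NAD-Capture against RiboMinus, 31 in all, became 16 in a common fit and 12 to 45 with a replicate left out. Those in the libraries labelled DXO-KO against RiboMinus, 17 in all, became 8 at a mean of at least 10, 11 with quantile normalization, 7 summed per gene, and 5 to 40 with a replicate left out. The lowest of these came without a RiboMinus library, where the one left is assumed to vary like the other group, and the 40 without replicate 1 labelled DXO-KO.

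Same-numbered libraries of different groups did not deviate together (correlations from -0.031 to 0.0075). With so few libraries per group and so little depth, this cannot decide whether the numbers pair them. A replicate block gave 0 transcripts past the threshold in each comparison, pathway transcripts included, with 1792, 8499 and 5383 at an unadjusted p under 0.05, and SNORA73B stayed at 1.19 between the NAD-Capture groups (adjusted p = 0.743 in limma).

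Among transcripts that passed in no comparison with the libraries labelled DXO-KO, TMEM107 against WT NAD-Capture turned to 0.43 when centred and ranged from -0.49 to 0.39 with a replicate left out (0.20 without WT NAD-Capture replicate 3, 0.39 and 0.036 without replicates 1 and 3 labelled DXO-KO). SNHG3 ranged from -0.89 to 0.046, the latter without replicate 1 labelled DXO-KO. The second SNHG3 transcript against RiboMinus turned to 0.19 with quantile normalization, to 0.47 with the block, and ranged from -0.44 to 0.47 with a replicate left out (0.13 without RiboMinus replicate 1, 0.47 without replicate 1 or 3 labelled DXO-KO). Depth limits what the NAD-Capture libraries can show: on an effective length of 1 kb, 1 fragment was worth an FPKM of 1.24 to 12.4 there and 0.0934 to 0.114 in RiboMinus.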
